A study of Mus musculus with 246 samples.

Results

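The response of the ventral hippocampus (vHipp) to a social interaction was examined in all 41 vHipp libraries of the 246 libraries of the series, taken by the tissue and the interaction state on their labels. Brains of 20 mice were collected after 10 minutes with an unfamiliar mouse (SocialInteraction) and those of 21 mice without it (NoInteraction). Each library came from the pooled left and right punches of 1 adult male of the outbred CD1 stock. In the Ctrl_Vehicle condition (7 NoInteraction and 6 SocialInteraction mice) pups grew up with ample bedding and nesting material and their dams were injected with an empty phospholipid gel. In ELA_Vehicle (7 and 7 mice) litters were exposed to early life adversity, that is limited bedding and nesting from the second to the ninth postnatal day, and the dams also received the empty gel. In ELA_SAFit2 (7 and 7 mice) the litters had the same adversity and the gel given to the dams carried SAFit2, an inhibitor of the glucocorticoid receptor co-chaperone FKBP51, which reached the pups through the milk. No group received SAFit2 without adversity, and mice of the 3 conditions shared cages. The question addressed here was which genes differed between the interaction states when the 3 conditions were pooled. The time from the interaction to tissue collection is not given in the sources used here.

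Total counts lay between 21662023 and 33292933 per library, with a median of 27114966. The mouse numbers on the labels were cut here into 14 runs of 8 consecutive numbers. Each run held mice of only 1 interaction state (7 runs of each, 0 with both). Neighbouring runs could share a state, as those of mice 1 to 7 and 9 to 15 did. Separate blocks of mice may thus be fewer than the runs. The labels name no runs, and the interaction and anything else that differed between runs cannot be told apart. The 4 mice of 1 SocialInteraction run, numbers 57, 59, 61 and 63, stood apart in several groups of genes described here, and values without them are given beside those results. All 41 libraries resembled libraries of their own mouse in the other regions most closely, over 60 genes that differ between mice. On the first principal component of log2 CPM (9.11% of the variance) the states overlapped, and 1 SocialInteraction library (ELA_Vehicle, mouse 21) lay farthest out, at 40.1. Markers of pyramidal neurons, CA1, CA2, CA3 and the dentate gyrus were all detected, as hippocampal tissue implies. These lists do not single out the ventral part of the hippocampus. A list of 6 ventral markers summed to 77.2 to 172 CPM without the interaction and 77.9 to 130 CPM after it. In punches of whole tissue, fewer cells of a type and less RNA per cell cannot be told apart.

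The ventral part of the hippocampus is connected with the amygdala, hypothalamus and prefrontal cortex and takes part in anxiety-related and social behaviour. Neuronal activity is followed within minutes by immediate early genes, which encode transcription factors such as the Fos and Egr families and effectors such as Arc, and later by secreted factors such as activin. An encounter with an unfamiliar mouse can also raise glucocorticoids, which act through the mineralocorticoid and glucocorticoid receptors. Both receptors are kept ready for ligand by HSP90 and its co-chaperones, among them FKBP51, whose gene Fkbp5 is itself induced by glucocorticoids. Proteins that are secreted or placed in membranes fold in the endoplasmic reticulum with the help of chaperones such as BiP, and a higher load there raises the transcription of those chaperones.

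Of the 15722 protein-coding genes tested, 222 (1.41%) differed between the states at an adjusted p under 0.05 (edgeR's quasi-likelihood test with condition as covariate, Benjamini-Hochberg adjustment). The level was higher after the interaction for 146 genes (0.929%) and lower for 76 (0.483%). The differences were small, with a median absolute log2 fold change of 0.17 among these genes, and a log2 fold change past 0.5 in size was found for 16 of the higher genes (0.102% of genes tested) and 3 of the lower ones (0.0191%). DESeq2 called 314 genes (2%), and 2062 genes (13.1%) had an unadjusted p under 0.05. Without the run of mice 57 to 63 the test called 43 higher and 10 lower genes, 52 of them among the 222. Leaving out the other runs in turn gave 65 to 170 higher and 26 to 89 lower genes, and 40 of the 146 higher and 8 of the 76 lower genes were called whichever run was left out. When counts were summed over each run, so that 7 runs stood against 7, 11 higher genes and 1 lower gene were called. Fst, Dnajb5, Dio2, Fosb, Hspb1, Htra1, Nebl, Pdzd2, Plin4 and Rtp1 were among the higher ones, and the lower one was Phka2.

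The smallest p-value belonged to Fst (ENSMUSG00000021765), the gene of follistatin, a secreted protein that binds activins and keeps them from their receptors. Its level, in CPM (counts relative to library size on a scale of 1e6), was 1.88 at the lowest, 3.01 at the median and 4.13 at the highest in the NoInteraction libraries, and 3.96, 5.68 and 7.66 in the SocialInteraction libraries. All 20 SocialInteraction libraries lay above the NoInteraction median and 17 lay above the highest NoInteraction library. The log2 fold change was 0.96 ± 0.10 (SE), with an adjusted p of 3.34e-08 in edgeR's test. A permutation test over the mice within conditions gave 1e-05, the smallest p that 100000 resamples can give. It exchanged single mice and not runs, so it cannot separate the interaction from what differed between runs. Leaving out a run moved the fold change between 0.90 and 1.03.

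**Figure D1:**
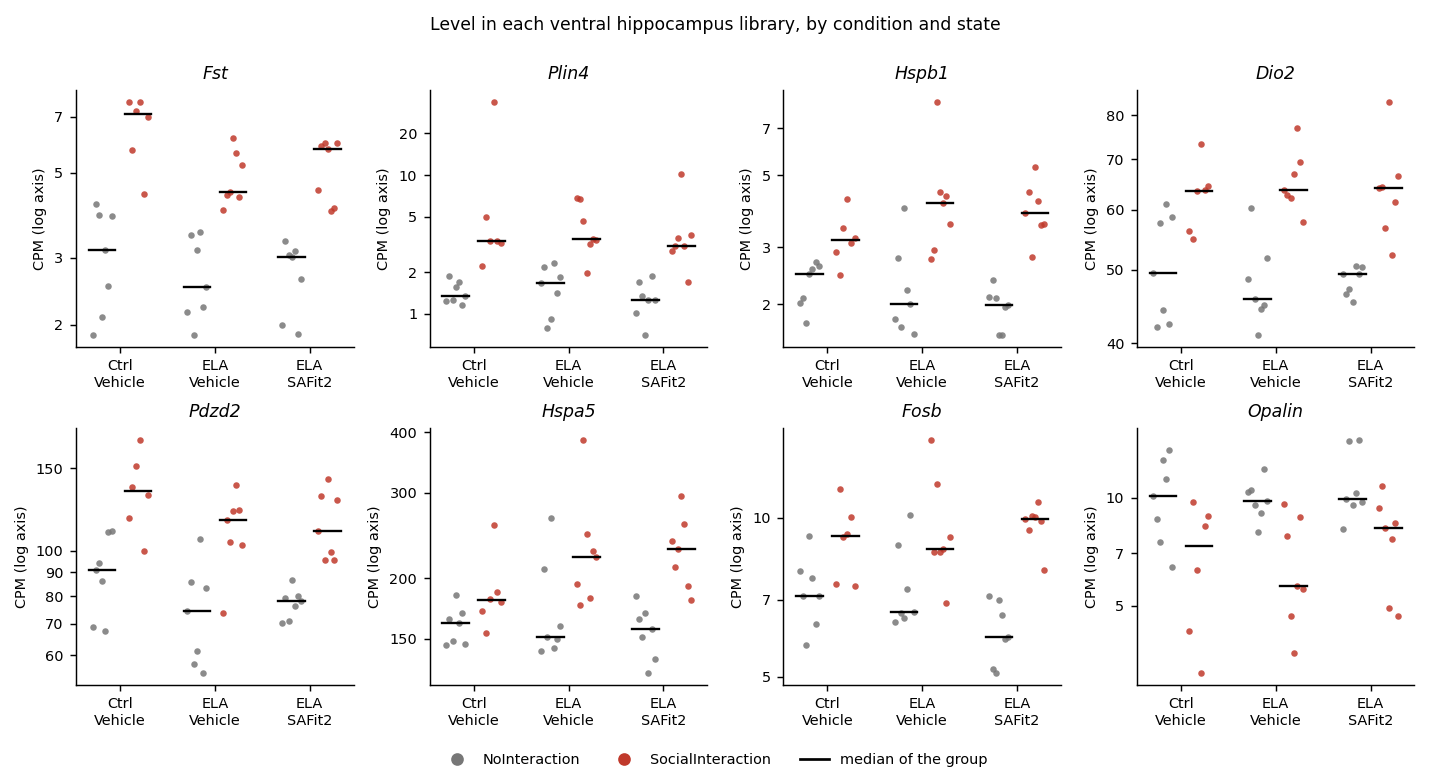
CPM of 8 genes (log axes) in each of the 41 vHipp libraries, by condition and state, with a bar at each group's median. Fst was higher in every SocialInteraction library than the NoInteraction median of 3.01 CPM, 1 library reached 33.8 CPM for Plin4, and Opalin was lower in 19 of 20 SocialInteraction libraries than the NoInteraction median.

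Inhba, which encodes the subunit of activin A, rose with Fst. It ranged from 5.5 over 8.25 at the median to 10.6 CPM without and from 7.54 over 11 to 15.8 CPM after the interaction (log2 fold change 0.46 ± 0.08, adjusted p = 0.000918, edgeR). The SocialInteraction libraries exceeded the highest NoInteraction library in 12 of 20 cases. On a list of 25 genes of the activin and transforming growth factor beta pathway, chosen after values were seen, 4 were higher and 0 lower. The other two were Pmepa1 (0.18 ± 0.04) and Skil (0.11 ± 0.03), both known targets and negative regulators of the pathway. Their calls were lost without mice 57, 59, 61 and 63 (adjusted p = 0.0634 for Pmepa1 and 0.101 for Skil, edgeR), where Fst and Inhba were the 2 called genes of the list. Over all genes tested, 0.929% were higher and 0.483% lower. Of the 25 genes 12 had a positive log2 fold change, and the median was -0.01, against 0.00 over all genes tested. Smad2, a transducer of activin signals, came closest among the others (-0.08 ± 0.02, adjusted p = 0.103, edgeR).

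Several other genes with small p-values separated the states nearly as well. Dio2, which encodes the deiodinase that makes active thyroid hormone in astrocytes, had a median of 48.7 CPM (41 to 61.1) without and 63.7 CPM (52.3 to 83.3) after the interaction (log2 fold change 0.39 ± 0.05, adjusted p = 1.54e-05, edgeR). For Pdzd2, a PDZ domain protein on the list of dentate gyrus markers, the median was 79.6 CPM (55 to 110.5) without and 119.7 CPM (73.7 to 172) after it, a log2 fold change of 0.58 ± 0.08. The SocialInteraction libraries lay above the highest NoInteraction library in 15 of 20 cases for Dio2 and in 12 for Pdzd2. The other 6 dentate gyrus markers were not called, and their sum with Pdzd2 overlapped between the states (462 to 1007 CPM without, 370 to 951 CPM after the interaction).

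Mfsd2a, a transporter of lysophospholipids in brain endothelium, had a median of 17.1 CPM (15.8 to 23.3) and 23.3 CPM (19.0 to 46.2) after the interaction (log2 fold change 0.50 ± 0.07). Rtp1, which encodes a protein that helps odorant receptors to the membrane, was near the detection limit, at 0 to 0.445 CPM without and 0.18 to 0.899 CPM after the interaction, with a log2 fold change of 1.54 ± 0.24. Smaller rises in abundant genes were measured for the secreted protease Htra1 (0.31 ± 0.05), the actin-binding Nebl (0.16 ± 0.02), the thioesterase Acot11 (0.27 ± 0.05), the clathrin adaptor Hip1 (0.20 ± 0.03) and the imprinted Peg10 (0.35 ± 0.06). For Htra1, Nebl and Acot11 all 20 SocialInteraction libraries lay above the NoInteraction median, and for Hip1 and Peg10 19 did. Of all genes tested, 33 (0.21%) had all SocialInteraction libraries above that median, and 31 of them were among the 146 higher genes.

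Genes of protein folding in the endoplasmic reticulum were higher as a group. On a list of 21 such genes, chosen after values were seen, 11 were higher and 0 lower, where 0.929% and 0.483% of all genes tested were. A positive log2 fold change was found for 18 of the 21, and the median was 0.17. Hspa5, which encodes the chaperone BiP, had 127 CPM at the lowest, 157 at the median and 266 at the highest without the interaction, and 154, 203 and 386 CPM after it (log2 fold change 0.41 ± 0.08, adjusted p = 0.0065, edgeR). Of the SocialInteraction libraries 19 lay above the NoInteraction median, but only 2 above the highest NoInteraction library. Calreticulin (Calr, 0.31 ± 0.06), the HSP90 of the endoplasmic reticulum (Hsp90b1, 0.26 ± 0.05), the disulphide isomerases Pdia6 (0.35 ± 0.07), Pdia3 (0.22 ± 0.04) and Pdia4 (0.25 ± 0.07) and the secreted factor Manf (0.36 ± 0.07) rose with it. Sdf2l1, a partner of BiP, had the largest difference on the list (0.58 ± 0.12), from a median of 3.87 CPM to 5.52 CPM. The remaining called members were Dnajb11, Dnajc3 and Hyou1.

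The 6 called genes whose promoter holds the endoplasmic reticulum stress element are shown because the factors that respond to unfolded protein bind this element. Like the folding list, the element was chosen after values were seen, so its share among higher genes is a description and not a separate test. The element was searched as CCAAT and CCACG 9 bases apart, on both strands, from 250 bases before to 50 bases after the start of each gene, in the RefSeq promoters of build GRCm38.p6. A promoter entry was matched for 12220 of the 15722 genes tested and for 71.9% of the 146 higher and 78.9% of the 76 lower genes, so shares describe the matched genes only. Capitals mark the CCAAT and CCACG of the element, which read ATTGG and CGTGG where it lies on the other strand.
Hspa5, chr2:34772010-34772058, plus strand: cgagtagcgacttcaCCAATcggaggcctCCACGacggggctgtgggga
Pdia6, chr12:17266476-17266524, plus strand: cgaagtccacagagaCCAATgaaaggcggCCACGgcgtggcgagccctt
Dnajc3, chr14:118937812-118937860, plus strand: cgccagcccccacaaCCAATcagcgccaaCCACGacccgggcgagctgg
Calr, chr8:84847060-84847108, minus strand: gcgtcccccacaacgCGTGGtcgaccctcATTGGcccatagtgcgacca
Derl3, chr10:75893227-75893275, plus strand: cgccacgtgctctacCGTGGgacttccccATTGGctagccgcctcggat
Hsp90b1, chr10:86705518-86705671, minus strand: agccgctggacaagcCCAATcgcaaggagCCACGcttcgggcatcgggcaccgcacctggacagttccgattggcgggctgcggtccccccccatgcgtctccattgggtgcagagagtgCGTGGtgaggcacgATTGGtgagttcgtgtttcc
The last site ends 46 bases before the start of Hspa5, 79 before that of Pdia6 and 143 before that of Calr, and Hsp90b1 has 2 sites. The element was found in 22 of all 12220 promoters (0.18%), in 6 promoters of higher genes (5.71% of those matched) and in 0 of lower genes. Without mice 57, 59, 61 and 63 none of these 6 higher genes was called. Their adjusted p-values then ran from 0.0514 for Calr to 0.406 for Derl3 (edgeR), so the share among higher genes depends on that run. Of these 22 genes 6 were higher, 18 had a positive log2 fold change and 8 belong to the folding list. Of the 14 genes with the element outside that list, 1 was higher, Derl3, and their median log2 fold change was 0.06. Within the list, 8 of the 18 genes with a promoter entry held the element, and 5 of the 9 that were called. Canx and Creld2, members of that list with the element, had log2 fold changes of 0.09 ± 0.03 (adjusted p = 0.0845) and 0.24 ± 0.07 (adjusted p = 0.106), which did not pass edgeR's threshold.

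Of 13 sensors and transcription factors of the unfolded protein response, 1 was higher, Xbp1 (0.20 ± 0.05, adjusted p = 0.043, edgeR), the factor whose spliced form activates folding genes. Gene counts do not separate its spliced form. Atf4 (0.04 ± 0.02), Atf6 (0.06 ± 0.02) and Eif2ak3, the kinase PERK (-0.06 ± 0.03), did not pass the test. In the degradation pathway that removes misfolded proteins, 2 of 14 genes were higher, the channel component Derl3 (0.59 ± 0.16, 0.931 to 1.38 CPM at the median) and the ubiquitin-conjugating enzyme Ube2g2 (0.16 ± 0.04). Without mice 57, 59, 61 and 63 none of these 3 genes was called by edgeR, with log2 fold changes of 0.12 for Xbp1 (adjusted p = 0.406), 0.38 for Derl3 (adjusted p = 0.406) and 0.12 for Ube2g2 (adjusted p = 0.251). Leaving out mouse 57 alone also left 0 called genes on the degradation list. The lists for the sensors and for degradation were likewise chosen after values were seen. For comparison, 0.929% of all genes tested were higher.

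The rise of the folding genes was unequal among mice. Mouse 59 had the highest level of Hspa5 (386 CPM), and the mean of its run was 297 CPM, against 182 to 258 CPM in the other 6 SocialInteraction runs and 144 to 207 CPM in the 7 NoInteraction runs. Averaged over the list on a log2 scale, the run of mice 57 to 63 lay 0.30 above the mean of all 41 libraries, and the SocialInteraction run nearest to it, a single library, lay 0.22 above. Without these 4 mice 2 of the 21 genes were called, Manf (0.23, adjusted p = 0.0177) and Pdia3 (0.16, adjusted p = 0.0444, both edgeR). The log2 fold change of Hspa5 was then 0.28 with an adjusted p of 0.0713 in edgeR's test, and the list's median was 0.10 with 19 positive members. Leaving out other runs gave between 7 and 13 called genes, and 0 were called with counts summed over runs, where the list's median was 0.18. Other mice with a high level were not all in the SocialInteraction group, as 1 ELA_Vehicle NoInteraction mouse, number 43, lay 0.20 above the mean.

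**Figure D2:**
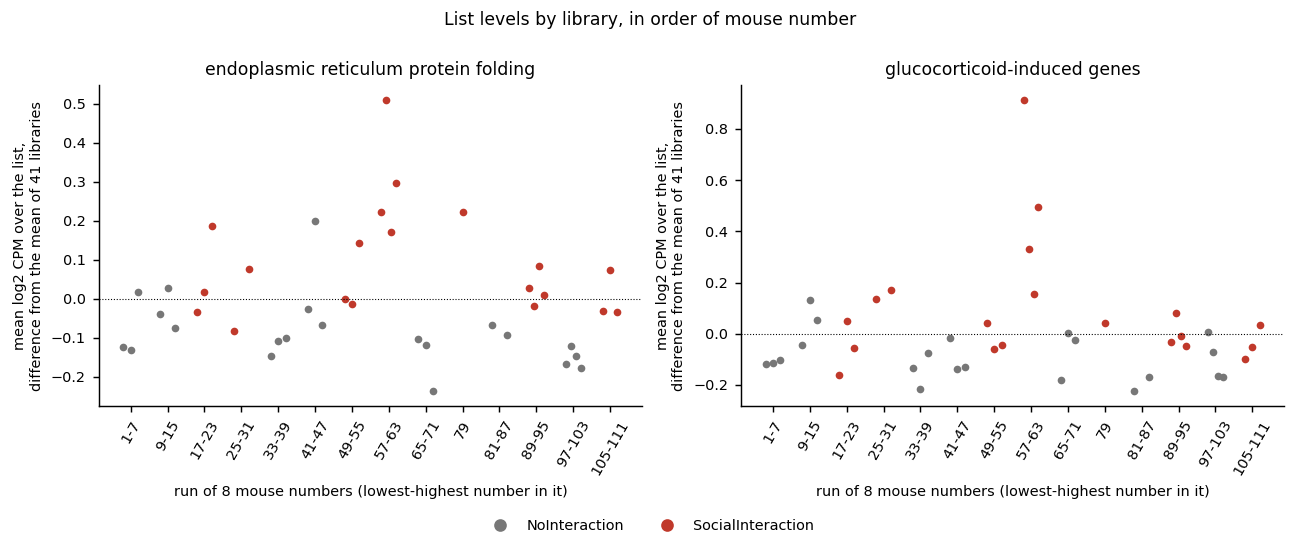
Mean log2 CPM over 2 gene lists in each of the 41 vHipp libraries, as the difference from the mean of all libraries, with the 14 runs of mouse numbers along the axis. The run of mice 57 to 63 lay highest on both lists, 0.30 above the mean for protein folding and 0.47 for glucocorticoid-induced genes, and each run held 1 interaction state.

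Cytosolic chaperones rose together with those of the endoplasmic reticulum. On the list of heat shock and cold-inducible genes 6 of 16 were higher and 1 lower. Of all genes tested, 0.929% were higher and 0.483% lower. Hspb1, a small heat shock protein, had 1.6 CPM at the lowest, 2.08 at the median and 3.96 at the highest without the interaction and 2.47, 3.53 and 8.45 CPM after it (log2 fold change 0.81 ± 0.12, adjusted p = 5.28e-05, edgeR). All 20 SocialInteraction libraries lay above the NoInteraction median and 8 above the highest NoInteraction library. Dnajb5, an HSP40 that works with HSP70, differed less but with little overlap, at 134 to 166 CPM without and 159 to 187 CPM after the interaction, where 14 libraries lay above the highest NoInteraction library (0.19 ± 0.02, adjusted p = 3.51e-06, edgeR). Hsph1 (0.23 ± 0.05), Hspa8 (0.17 ± 0.04) and Chordc1 (0.13 ± 0.03) were also higher, and Hspa5 counts on this list too. The lower member was Cirbp, a cold-inducible RNA-binding protein, with a median of 63 CPM (50.5 to 79.3) without and 53.8 CPM (39.2 to 63.5) after the interaction (-0.24 ± 0.05, adjusted p = 0.0104, edgeR). Cirbp was not called without mice 57, 59, 61 and 63 (adjusted p = 0.0914, edgeR).

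Of 20 co-chaperones of HSP90 and HSP70, a list chosen after values were seen, 8 were higher and 0 lower. The shares over all genes tested were 0.929% higher and 0.483% lower. All 20 had a positive log2 fold change, with a median of 0.09. Next to Dnajb5, Hsph1 and Chordc1, the called genes were Stip1 (0.18 ± 0.04), which couples HSP70 to HSP90, St13 (0.08 ± 0.02), the HSP90 activator Ahsa1 (0.13 ± 0.03) and both immunophilins of the steroid receptor complex, Fkbp4 (0.17 ± 0.04) and Fkbp5 (0.24 ± 0.06). The HSP90 gene Hsp90ab1 itself had a log2 fold change of 0.07 ± 0.03 (adjusted p = 0.305, edgeR). Without mice 57, 59, 61 and 63, Dnajb5 and Stip1 were called on this list, the other 6 were not, and all 20 members were positive. On the heat shock list Dnajb5 and Hspb1 remained.

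**Figure D3:**
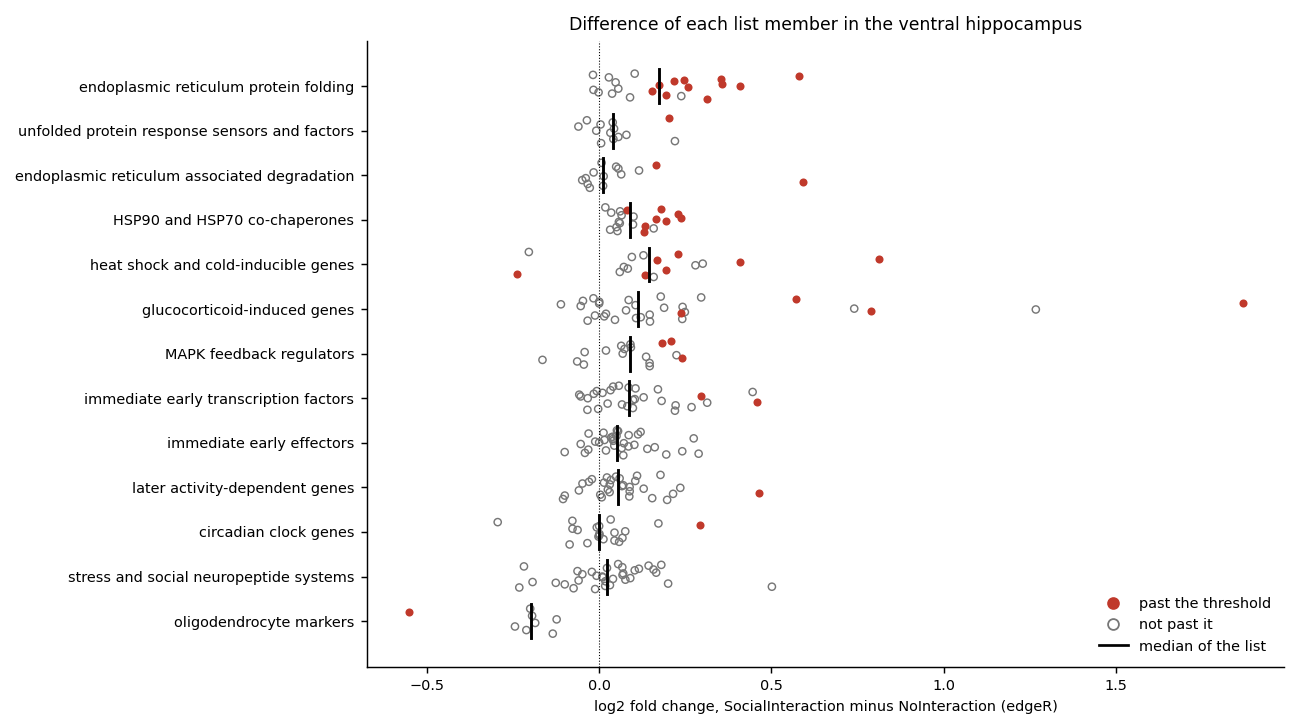
Log2 fold change (SocialInteraction minus NoInteraction, edgeR) of each tested member of 13 lists in the vHipp. Filled points passed the threshold and bars mark list medians, which lay at 0.17 for protein folding, 0.09 for the co-chaperones, 0.11 for glucocorticoid-induced genes and -0.20 for oligodendrocyte markers.

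Of 30 glucocorticoid-induced genes 4 were higher and 0 lower, with a median log2 fold change of 0.11. Of all genes tested, 0.929% were higher and 0.483% lower. Plin4, which encodes a coat protein of lipid droplets, had the largest difference of all called genes. It had 0.702 CPM at the lowest, 1.33 at the median and 2.32 at the highest without the interaction and 1.69, 3.4 and 33.8 CPM after it (log2 fold change 1.87 ± 0.27, adjusted p = 6.47e-05, edgeR). All 20 SocialInteraction libraries lay above the NoInteraction median and 17 above the highest NoInteraction library. Without mouse 57, which had the 33.8 CPM, the log2 fold change was 1.44, and without its whole run it was 1.33 with an adjusted p of 2.87e-07 in edgeR's test.

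Fkbp5 differed less. Its level was 47.8 CPM at the lowest, 56.2 at the median and 76 at the highest without the interaction and 58.2, 65.1 and 111.2 CPM after it (log2 fold change 0.24 ± 0.06, adjusted p = 0.0355, edgeR). All 20 SocialInteraction libraries lay above the NoInteraction median, but only 2, those of mice 57 and 63, above the highest NoInteraction library. The call was lost without mouse 57 (adjusted p = 0.0551) and without mouse 63 (adjusted p = 0.0665), and without the run of both the log2 fold change was 0.15 (adjusted p = 0.269, all edgeR). The sulfotransferase Sult1a1 (0.57 ± 0.14) and Hif3a, a subunit of the hypoxia-inducible factors (0.79 ± 0.19), were higher as well. Without that run their log2 fold changes were 0.37 (adjusted p = 0.0733) and 0.34 (adjusted p = 0.201, both edgeR). Counts of called genes on this list were 1 to 5 over the runs left out, and Plin4 was called in each. Tsc22d3 (0.30 ± 0.10), Map3k6 (0.74 ± 0.24), Mt1 (0.19 ± 0.06) and Mt2 (0.24 ± 0.08) had positive values that did not pass the test, with adjusted p-values between 0.137 and 0.146.

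Mouse 57 (Ctrl_Vehicle, SocialInteraction) had the highest level of Plin4, Hif3a, Xdh, Sult1a1, Mfsd2a and Fkbp5 among the 41 vHipp libraries. The same mouse had the highest level of all 6 genes among 41 libraries in the medial prefrontal cortex (PFC), anterior cingulate cortex (ACC), basolateral amygdala (BLA) and dorsomedial thalamus (DMT) too. For Plin4 it had 32.6 CPM, here relative to the library total, in the vHipp and 68.1 CPM in the DMT, where the medians over mice were 1.85 and 3.19. Mouse 63 (ELA_SAFit2) ranked 2 for Plin4, Hif3a and Xdh in all 5 regions, and mouse 59 (ELA_Vehicle) ranked 3 for Hif3a and Xdh. Mouse 59 was also the highest for Hspa5 in the vHipp, PFC, ACC and DMT, and among the 3 highest in the BLA. The separate libraries of a mouse thus had like values in this group of genes. Mouse 61 of the same run had 1.97 CPM of Plin4, inside the NoInteraction range.

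The receptors of corticosteroids were lower or did not pass. Nr3c2, the mineralocorticoid receptor, had a median of 224 CPM (185 to 245) without and 196 CPM (161 to 243) after the interaction (-0.16 ± 0.04, adjusted p = 0.0281, edgeR), and 19 of 20 SocialInteraction libraries lay below the NoInteraction median. This edgeR call was lost without mouse 57 (adjusted p = 0.0551) and without its run (adjusted p = 0.201). Nr3c1, the glucocorticoid receptor, had a log2 fold change of -0.09 ± 0.05 (adjusted p = 0.458, edgeR). Of 15 corticosteroid receptors and chaperones, 4 were higher (Stip1, Hspa8, Fkbp4 and Fkbp5) and 1 lower (Nr3c2), where 0.929% of all genes tested were higher and 0.483% lower. The 4 higher genes also count on the co-chaperone or heat shock lists. Without mice 57, 59, 61 and 63 only Stip1 of these genes was called (adjusted p = 0.0432, edgeR).

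Few immediate early genes passed the test at the time of collection, though most had small positive differences. Of 29 transcription factors tested, 2 were higher and 0 lower, where 0.929% of all genes tested were higher and 0.483% lower. The log2 fold change was positive for 22 of the 29, against 49.9% of all genes tested, and the median was 0.09. Fosb had 5.08 CPM at the lowest, 6.63 at the median and 10.1 at the highest without the interaction and 6.88, 9.41 and 14.1 CPM after it (0.46 ± 0.08, adjusted p = 0.000608, edgeR). All 20 SocialInteraction libraries lay above the NoInteraction median and 4 above the highest NoInteraction library, and the call held whichever run was left out. Klf10, a zinc finger factor that transforming growth factor beta also induces, was the other (0.29 ± 0.07, adjusted p = 0.0267, edgeR). It was called in 8 of the 14 fits that left out a run. The early responders Fos (0.31 ± 0.21), Npas4 (0.17 ± 0.14), Nr4a1 (0.11 ± 0.10), Egr1 (0.08 ± 0.09) and Egr3 (0.07 ± 0.04) did not pass, with adjusted p-values between 0.459 and 0.781. Fos varied widely among mice of the same state, from 1.22 to 10.2 CPM without and from 2.14 to 9.42 CPM after the interaction.

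None of the 32 immediate early effectors passed edgeR's adjusted threshold. Of the 32, 7 had an unadjusted p under 0.05, against 13.1% of all genes tested, and 25 had a positive log2 fold change. Homer1, a scaffold of the postsynaptic density (0.16 ± 0.05, adjusted p = 0.0651, edgeR), and Arc, which acts on the traffic of glutamate receptors (0.29 ± 0.10, adjusted p = 0.151), came closest. DESeq2 called Homer1, with an adjusted p of 0.0357. Among 17 feedback regulators of MAP kinase signalling, Spry2 (0.18 ± 0.04), Spry4 (0.21 ± 0.05) and the phosphatase Dusp4 (0.24 ± 0.06) were higher. The share of higher genes over all genes tested was 0.929%. Spry2 had 27.4 to 36.4 CPM without and 29.9 to 44.7 CPM after the interaction, with all 20 SocialInteraction libraries above the NoInteraction median. Spry2 was called whichever run was left out. Without mice 57, 59, 61 and 63 edgeR's adjusted p was 0.201 for Spry4 and 0.361 for Dusp4, so only Spry2 was called, and Dusp4 was called in 2 of the 14 fits that left out a run.

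Of 30 later activity-dependent genes only Inhba was called, where 1.41% of all genes tested were called. Bdnf, a neurotrophin (0.15 ± 0.04, adjusted p = 0.0688), and Nptx2, a secreted synaptic pentraxin (0.24 ± 0.09, adjusted p = 0.209), did not pass edgeR's test, though DESeq2 called Bdnf (adjusted p = 0.0387). Per2, which encodes a repressor of the circadian clock, was the 1 called gene of 20 clock genes. It ranged from 24.4 over 30.1 at the median to 39.5 CPM without and from 29 over 38.6 to 50 CPM after the interaction (0.29 ± 0.05, adjusted p = 0.0018, edgeR). The median over the clock list was 0.00, and Per1, also a glucocorticoid-induced gene, was not called.

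No gene passed the test in 33 genes of stress and social neuropeptide systems, in 27 ionotropic glutamate and GABA-A receptor genes or in 13 mitochondrially encoded genes, where edgeR gave an unadjusted p under 0.05 for 3, 6 and 0 genes. DESeq2 called 1 gene each of the first 2 lists, Pnoc, which encodes a precursor of nociceptin, and Grin2a, a subunit of NMDA receptors, and 0 of the mitochondrial genes. The oxytocin receptor Oxtr had 7.32 to 14.1 CPM without and 7.02 to 14.6 CPM after the interaction (0.07 ± 0.09), so the states overlapped throughout. Crh, the corticotropin-releasing hormone (-0.10 ± 0.14), and Avpr1b, the vasopressin receptor of CA2 (0.50 ± 0.40), had medians under 1 CPM in both states and did not pass edgeR's test (adjusted p = 0.838 and 0.643).

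The 76 lower genes had a median log2 fold change of -0.16, against 0.18 for the 146 higher ones, and included genes of myelin. Slc4a3, an anion exchanger, had the smallest p-value among them, with 133 to 156 CPM (median 143) without and 126 to 141 CPM (median 134) after the interaction, a log2 fold change of -0.09 ± 0.02 (adjusted p = 0.00209, edgeR). All 20 SocialInteraction libraries lay below the NoInteraction median, as for 14 of all genes tested (0.089%), 10 of which were among the 76. Phka2, a subunit of phosphorylase kinase (-0.18 ± 0.04), Dpy19l4 (-0.12 ± 0.03), the importin Ipo9 (-0.07 ± 0.02) and the phospholipase Pla2g5 (-0.69 ± 0.15) had the same separation. Rsrp1 (-0.18 ± 0.03), the endocytic Fcho1 (-0.14 ± 0.03), the acyltransferase Gpam (-0.16 ± 0.03), the potassium channel Kcnb2 (-0.21 ± 0.04) and the DNA ligase Lig1 (-0.21 ± 0.04) followed. The calls of Slc4a3, Phka2, Dpy19l4, Rsrp1, Fcho1, Gpam, Kcnb2 and Lig1 held whichever run was left out. The steepest differences at a mean of at least 1 CPM, next to Opalin, were those of the transcription factor Sox3 (-0.48 ± 0.13), Zfp804b (-0.48 ± 0.13), the guanylate cyclase Gucy2f (-0.43 ± 0.10), Adamtsl4 (-0.36 ± 0.10), Klhdc9 (-0.36 ± 0.09), the transporter Abcc6 (-0.35 ± 0.08) and the sulfatase Arsg (-0.35 ± 0.08). Of the 14 fits that left out a run, Adamtsl4 was called in 1, Zfp804b in 2, Sox3 in 5, Klhdc9 in 9, Abcc6 in 10 and Gucy2f and Arsg in 13. Without mice 57, 59, 61 and 63 only Gucy2f of these 7 was called, and Ipo9 lost its call as well.

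Opalin, a membrane protein of oligodendrocytes, had 6.39 CPM at the lowest, 9.92 at the median and 14.5 at the highest without the interaction and 3.24, 7.75 and 10.8 CPM after it (-0.55 ± 0.12, adjusted p = 0.0119, edgeR). Of the SocialInteraction libraries 19 lay below the NoInteraction median. Pllp, the gene of plasmolipin, had a log2 fold change of -0.29 ± 0.06, and of -0.21 without mice 57, 59, 61 and 63, where edgeR did not call it (adjusted p = 0.0713). Opalin was the only called gene of 8 oligodendrocyte markers, all of which had a negative log2 fold change with a median of -0.20. Mbp, an abundant myelin gene (-0.19 ± 0.09, adjusted p = 0.399), did not pass edgeR's test. The summed level of the 8 markers lay between 1810 and 3502 CPM without and between 1380 and 3055 CPM after the interaction. Opalin was lowest in the run of mice 57 to 63, at a mean of 4.13 CPM against 6.37 to 14 CPM in the other runs, and its call was lost without that run (-0.41, adjusted p = 0.0914, edgeR).

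**Figure D4:**
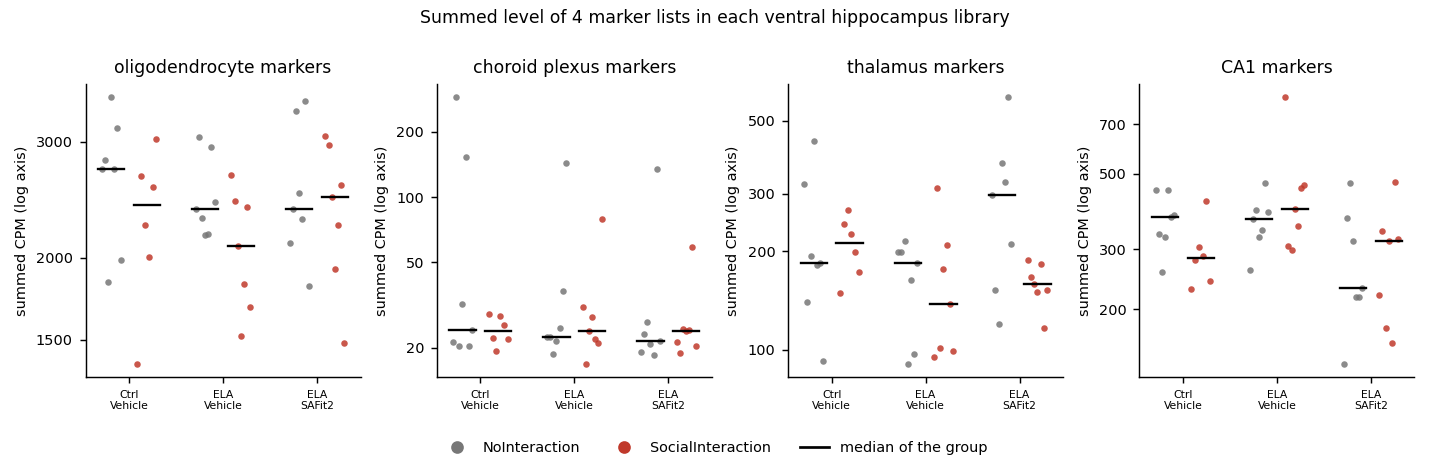
Summed CPM of 4 marker lists (log axes) in each of the 41 vHipp libraries, by condition and state, with a bar at each group's median. Oligodendrocyte sums ran from 1380 to 3502 CPM, and choroid plexus sums lay near 20 CPM in most libraries, with single libraries of both states up to 290 CPM.

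Markers of tissue beside the hippocampus varied with the punch. Choroid plexus markers (7 genes, 0 called, median log2 fold change -0.81) summed to between 18.5 and 290 CPM without and between 16.9 and 79.1 CPM after the interaction, with medians of 22.5 and 24.1 CPM. Thalamus markers (6 genes, 0 called, all negative, median -0.37) had sums between 90.7 and 591 CPM and between 94.9 and 313 CPM. Of the other marker lists, 1 endothelial gene was higher, Ly6c1 (0.26 ± 0.06), beside Pdzd2 of the dentate gyrus. With the oligodendrocyte level as a covariate, chosen after values were seen, 83 genes were higher and 40 lower, and 8 of the 21 folding genes and 1 glucocorticoid-induced gene, Plin4, were called. With the levels of the choroid plexus, dentate gyrus, CA1 and oligodendrocyte lists as covariates, 328 genes were higher and 282 lower, and 156 of the 222 were among them. What part the makeup of the punches had in the differences was not tested further.

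Whether adversity or SAFit2 altered the response was asked with a test of the difference among conditions. No gene passed edgeR's test for a difference of the response among the 3 conditions (467 genes, 2.97%, at an unadjusted p under 0.05), the smallest adjusted p was 0.126, and DESeq2 called 1 gene. All 146 higher and all 76 lower genes had the same sign in each condition, which their selection on the pooled difference favours. Among the higher genes the median log2 fold change was 0.15 in Ctrl_Vehicle, 0.18 in ELA_Vehicle and 0.21 in ELA_SAFit2. For Fst it was 1.11, 0.85 and 0.93, and the states did not overlap in any of them. In Ctrl_Vehicle the level was 1.88 to 4.13 CPM without and 4.4 to 7.66 CPM after the interaction. In ELA_Vehicle it was 1.89 to 3.49 and 3.99 to 6.16 CPM, and in ELA_SAFit2 1.89 to 3.32 and 3.96 to 5.99 CPM.

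Within single conditions few genes passed. In Ctrl_Vehicle 3 genes were higher (0.0191%), Fst, Dnajb5 and Plin4, with 5.82% of genes at an unadjusted p under 0.05. In ELA_SAFit2 4 were higher (0.0254%), Fst, Hspb1, Htra1 and Fosb, and 1 was lower (0.00636%), C030006K11Rik, with 8.64% at an unadjusted p under 0.05. In ELA_Vehicle edgeR called none, with 986 genes (6.27%) at an unadjusted p under 0.05 and 10 higher and 4 lower genes by DESeq2. The difference in these counts between conditions was not itself tested.

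The smallest p-values of the test among conditions belonged to Cwc22, a splicing factor, and to the predicted genes Gm13693, Gm13694, Gm13691 and Gm13698. Cwc22 lay between 536 and 629 CPM in 4 of the 41 libraries and between 22.0 and 30.0 CPM in the other 37. The 4 libraries came from 2 ELA_Vehicle NoInteraction and 2 ELA_SAFit2 SocialInteraction mice, and the same 4 mice were high in the PFC, ACC, BLA and DMT. Predicted genes beside a gene can share reads with it, so the values of these genes are uncertain.

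The response was set against that of 4 other regions of the same mice, the PFC, ACC, BLA and DMT. The test used the difference within each mouse between the vHipp and the mean of the 4 regions (limma), so the mouse was its own block. The nucleus accumbens was left out, since only 29 of its 41 libraries were closest to libraries of their own mouse. Of 15203 genes, 4 (0.0263%) responded more in the vHipp and 2 (0.0132%) less, and 867 (5.7%) had an unadjusted p under 0.05.

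Fst rose more in the vHipp than in the mean of the 4 other regions, by 0.71 ± 0.11 on the log2 scale (adjusted p = 0.00205, limma). The vHipp was not tested against the DMT alone, where the value of Fst came closest. Its log2 fold change was 0.96 ± 0.10 in the vHipp, 0.68 ± 0.24 in the DMT, 0.26 ± 0.18 in the PFC, 0.23 ± 0.17 in the BLA and 0.02 ± 0.12 in the ACC, and only the vHipp value passed edgeR's test. Recql4, a DNA helicase, rose in the vHipp from a median of 2.27 CPM (1.78 to 3.05) to 3.07 CPM (1.91 to 5.75). Its log2 fold change was 0.50 ± 0.09, against -0.11 to 0.15 in the 4 other regions (difference 0.42 ± 0.08, adjusted p = 0.0305, limma). Without mice 57, 59, 61 and 63 the vHipp value of Recql4 was 0.35 (adjusted p = 0.0273, edgeR). Serpina3n, a protease inhibitor that reactive astrocytes make (difference 0.24 ± 0.05), and Ssbp2 (0.17 ± 0.03) were the others. Ssbp2 itself did not pass the test in the vHipp (0.13 ± 0.04, adjusted p = 0.0908, edgeR). The vHipp call of Serpina3n (0.18 ± 0.05) was lost without mice 57, 59, 61 and 63 (adjusted p = 0.272, edgeR). The test of the difference between regions was not repeated without these mice.

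Egr3, an immediate early transcription factor, went the other way. Its level in the vHipp was 79.7 to 118 CPM without and 94.5 to 119 CPM after the interaction, and its log2 fold change there was 0.07 ± 0.04, against 0.89 ± 0.10 in the PFC, 0.64 ± 0.08 in the ACC, 0.28 ± 0.05 in the BLA and 0.70 ± 0.17 in the DMT (difference -0.54 ± 0.07, adjusted p = 8.5e-06, limma). Tnfrsf12a, the receptor of the cytokine TWEAK, had 0.09 ± 0.08 in the vHipp and 0.67 ± 0.08 in the DMT (difference -0.34 ± 0.07, adjusted p = 0.0482, limma). Of the later activity-dependent genes 17 of 30 were higher in the PFC, 11 in the ACC and 2 each in the BLA and DMT, and the vHipp had 1. The shares of higher genes over all genes tested differed too, at 4.94% (PFC), 2.45% (ACC), 1.17% (DMT), 0.929% (vHipp) and 0.869% (BLA). The counts on the list were not adjusted for these shares. None of the 30 passed the test of the difference between regions, where 3 had a positive difference and the median was -0.10.

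**Figure D5:**
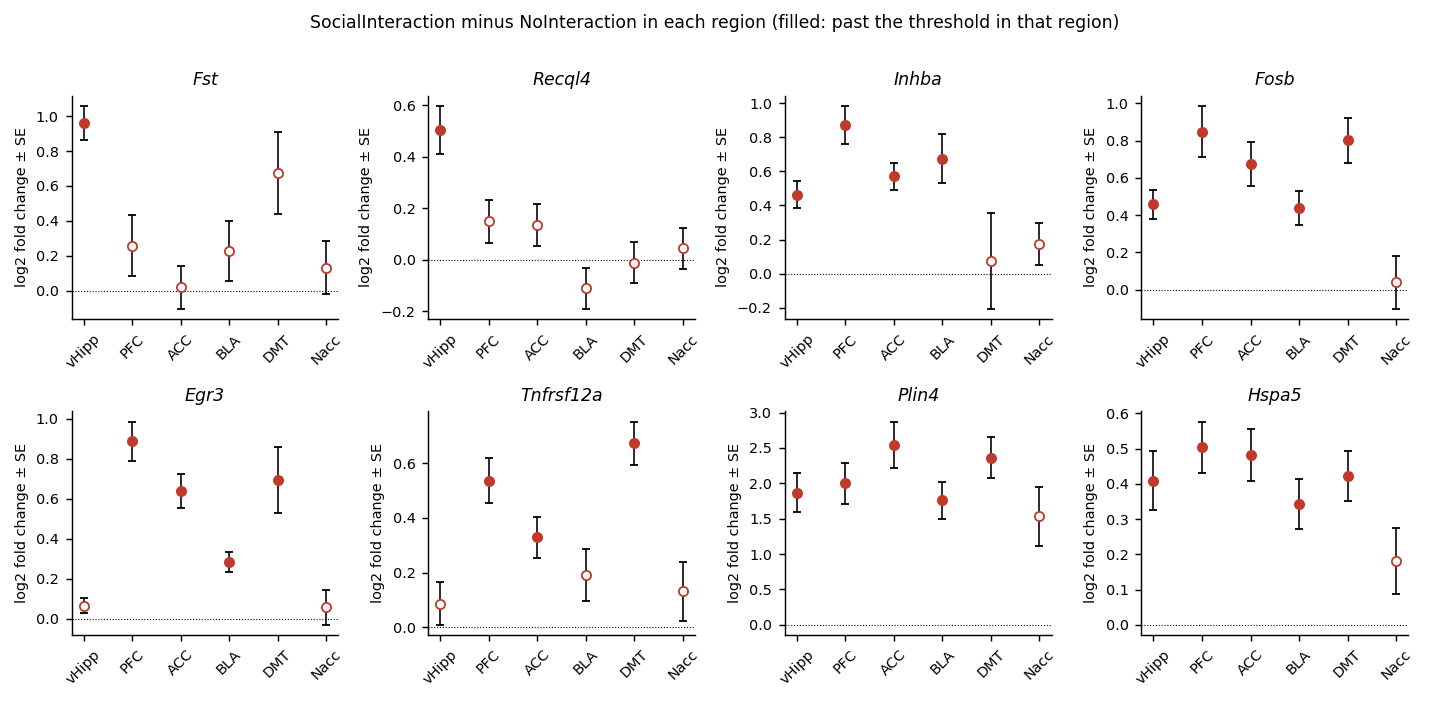
Log2 fold change (SocialInteraction minus NoInteraction) with its SE for 8 genes in each of the 6 regions, filled where it passed the threshold in that region. In the nucleus accumbens (Nacc) only 29 of 41 libraries were closest to libraries of their own mouse. Fst and Recql4 were called in the vHipp only, Egr3 was 0.07 in the vHipp and 0.28 to 0.89 in the PFC, ACC, BLA and DMT, and Plin4 was 1.76 to 2.54 in those regions and 1.87 in the vHipp.

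Most genes called in the vHipp did not pass this test of a difference between regions. The folding list had 15 higher genes in the PFC, 14 in the ACC, 9 in the BLA and 12 in the DMT, and none of its 21 genes passed the test of the difference between the vHipp and those regions (limma, median difference 0.01). Plin4 had log2 fold changes of 2 ± 0.29 in the PFC, 2.54 ± 0.33 in the ACC, 1.76 ± 0.27 in the BLA and 2.36 ± 0.29 in the DMT. Fosb had log2 fold changes of 0.85 ± 0.14 in the PFC, 0.68 ± 0.12 in the ACC, 0.44 ± 0.09 in the BLA and 0.80 ± 0.12 in the DMT, against 0.46 ± 0.08 in the vHipp, and the difference between the vHipp and the 4 regions did not pass. Of the 222 genes, 115 were called in the PFC, 94 in the ACC, 68 in the BLA and 69 in the DMT, where 4.94%, 2.45%, 0.869% and 1.17% of all genes tested were higher and 2.66%, 1.81%, 0.738% and 0.656% lower. The libraries of the regions differ but the mice and their runs are the same. In the nucleus accumbens edgeR called no gene in either direction, with libraries kept under their labels.

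Other sequence features were counted in the same promoters. The cAMP response element TGACGTCA was found in 394 promoters (3.22%) of all genes, in 1 of a higher gene (0.952% of those matched), that of Dio2, and in 1 of a lower gene (1.67%). Its first 5 letters, TGACG, were found in 32.7% of all promoters, 36.2% of those of higher genes and 31.7% of those of lower genes. In the Dio2 promoter, shown because this gene had one of the smallest p-values, capitals mark the element.
Dio2, chr12:90739111-90739148, minus strand: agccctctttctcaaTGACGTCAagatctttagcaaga
The serum response element (CArG box) was in 1.64% of all promoters, 2.86% of those of higher and 0% of those of lower genes. The AP-1 site TGANTCA was in 6.42% of all promoters and in 5.71% of those of higher genes, and the Egr site GCGGGGGCG in 6.10% and 5.71%, with 13.3% (8 promoters) among lower genes. The heat shock element, GAANNTTCNNGAA or TTCNNGAANNTTC, was in 0.540% of all promoters and in those of 2 higher genes, Hsph1 and Chordc1. This element was also chosen after values were seen. Neither gene was called without mice 57, 59, 61 and 63 (adjusted p = 0.125 for Hsph1 and 0.0992 for Chordc1, edgeR). The palindromic glucocorticoid response element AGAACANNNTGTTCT was in 1 promoter of all and in 0 of the called genes, and sites farther from the start were not searched. The median genomic span was 30.7 kb for higher, 33.8 kb for lower and 24.7 kb for all genes tested.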

How the data were processed

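Poly-A RNA of punches from 6 brain regions was sequenced in 246 libraries of the series, 41 of them from the vHipp. The authors deposited estimated counts per gene made with salmon, and GRCm39 (mm39), STAR and DESeq2 are named in the submitters' processing notes. Estimated counts were rounded to whole numbers (12.12% of the deposited values were not whole). The filter followed the study's methods and kept 15722 protein-coding genes that were counted in 6 or more vHipp libraries and reached a sum of 100 over them. Gene types and lengths came from GENCODE M21 (52073 of 56691 identifiers matched, 978 more typed by RefSeq symbol and 3640 left untyped).

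SocialInteraction and NoInteraction libraries were compared with edgeR 4.0.16 (TMM, quasi-likelihood test, condition as covariate) in R 4.3.3, with DESeq2 1.42.0 as an alternative. A gene was called at an adjusted p under 0.05, and fold changes are SocialInteraction over NoInteraction. CPM values are relative to the TMM library size, except in the ranking of single mice across regions, which used library totals. Regions were compared with limma 3.58.1 on the difference within each mouse of log2 CPM (prior count 2). The shared mouse number on the labels names the same animal in each region. In the nucleus accumbens only 29 of 41 libraries were closest to libraries of their labelled mouse. Within the vHipp the mice are all different, so nothing pairs them. The pooled edgeR and DESeq2 tests and limma's test of a difference between regions were checked on simulated counts with known changes. The test among conditions was checked only on counts without a condition difference. Simulated libraries carried no run effect and no level shared by the libraries of a mouse. The tests within conditions and the permutation test were not simulated.

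Named genes were the called members of the immediate early, MAPK and glucocorticoid lists, the 15 smallest p-values and the 8 largest differences (mean of at least 1 CPM) in each direction, the 5 smallest p-values of the tests among conditions and regions, 9 genes of stress and social signalling, and up to 4 examples of other lists. Further called members of the lists chosen after values were seen, and the genes beyond this rule, were picked with their values known. The groups of genes, lists and tests were chosen with earlier results of these data known.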

Additional observations from a re-analysis of the deposited data

Results flagged for a closer look

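A library was set apart when its gap to the nearest of the others exceeded Dixon's 95% critical value within its condition and state. This held in 35 of 450 groups of values (7.78%), and chance gives about 1 in 20. Mouse 57 (Ctrl_Vehicle, SocialInteraction) had 8 of these values. It was highest of its group for Plin4 (33.8 CPM, others 2.21 to 4.98), Hif3a (29.3 CPM, others 4.04 to 7.4), Xdh (23 CPM, others 4.72 to 6.18), Sult1a1 (13.8 CPM), Mfsd2a (46.2 CPM) and Htra1 (158 CPM), and lowest for Nr3c1 (61.1 CPM, others 80.5 to 92.1) and Crh (0.356 CPM). Mouse 63 (ELA_SAFit2, SocialInteraction) was highest for Plin4 (10.2 CPM), Hif3a (18.3 CPM) and Fkbp5 (83.9 CPM, others 62.4 to 67.5). Mouse 59 (ELA_Vehicle, SocialInteraction) was highest for Hspb1 (8.45 CPM) and lowest for Nr3c1 (61.4 CPM). The run that held these mice and its weight on each list are given with the results.

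Among ELA_Vehicle NoInteraction mice, number 13 was lowest for Ipo9 (178 CPM), Klf10 (13.9 CPM) and Nptx2 (10.3 CPM), number 43 was lowest for Arsg (11.3 CPM), and number 69 was highest for the sum of mural cell markers (264 CPM). Among ELA_Vehicle SocialInteraction mice, number 21 was highest for Nptx2 (36.1 CPM) and for the sums of CA1 markers (841 CPM, others 299 to 465) and CA2 markers (333 CPM), and number 53 was lowest for pyramidal neuron markers (6616 CPM). The other single values were Abcc6 in mouse 25 (0.925 CPM, Ctrl_Vehicle SocialInteraction), Adamtsl4 in mouse 87 (9.32 CPM, ELA_SAFit2 NoInteraction), Fosb in 1 ELA_SAFit2 SocialInteraction mouse (7.97 CPM, others 9.49 to 10.7) and Slc4a3 in mouse 39 (133 CPM, ELA_SAFit2 NoInteraction). The total count of mouse 17 (Ctrl_Vehicle SocialInteraction) was 31453700, above the others of its group.

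Marker sums of tissue that borders the punch or of blood stood out in single libraries. Choroid plexus markers reached 135 CPM in mouse 87 (ELA_SAFit2 NoInteraction), 58.9 CPM in mouse 95 (ELA_SAFit2 SocialInteraction), 144 CPM in 1 ELA_Vehicle NoInteraction mouse and 79.1 CPM in 1 ELA_Vehicle SocialInteraction mouse. Ependymal markers reached 13.7 CPM in mouse 95, dentate gyrus markers 898 CPM in mouse 71 (ELA_SAFit2 NoInteraction), and red blood cell markers 351 CPM in mouse 97 (Ctrl_Vehicle NoInteraction) and 544 CPM in the ELA_Vehicle SocialInteraction mouse just named.

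The response of 6 genes differed between the vHipp and the mean of the PFC, ACC, BLA and DMT by limma's test of the difference. The differences, in log2, were 0.71 for Fst, 0.42 for Recql4, 0.24 for Serpina3n, 0.17 for Ssbp2, -0.34 for Tnfrsf12a and -0.54 for Egr3.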

How the results depend on the processing

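All 222 genes kept their direction under every alternative of the pooled comparison that tested them, and the number called varied. DESeq2 called 115 lower genes, the 4 marker list covariates gave 328 higher and 282 lower, and summing over runs gave 11 and 1. A random block of runs (limma voom, estimated correlation 0.0083) gave 126 and 60. Chosen after seeing the data, the oligodendrocyte covariate gave 83 and 40 (Crh then turned to 0.0017), and leaving out the 2 libraries farthest on the first components, mice 21 and 87, gave 98 and 36. Leaving out 1 library or 1 run gave 43 to 179 higher and 10 to 99 lower genes. Single libraries that moved a count by over 1.5 times were mouse 57 (97 higher, 35 lower) and, for lower genes alone, mice 5 and 37 (50 each), 65 and 1 ELA_Vehicle SocialInteraction mouse of the last run (49 each), 79 (48), 59 (47), 61 and 63 (46 each), 55 (45) and 87 (44). Of the runs, those of mice 57 to 63 (43 and 10), 65 to 71 (65 and 26), 1 to 7 (94 and 38), 33 to 39 (93 and 34), 81 to 87 (86 and 40) and that starting at 97 (93 and 30) moved a count that far in either direction, as did, for lower genes, the runs 49 to 55 (50) and 79 (48). Of 54 named genes DESeq2 lost none, the summed runs lost 36, and the run of mice 57 to 63 lost 20 when left out.

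Among conditions DESeq2 called 1 gene. Within Ctrl_Vehicle, DESeq2 called 2 lower genes, and a fit of that condition alone called 0 higher. Within ELA_Vehicle, DESeq2 called 10 higher and 4 lower, and the fit of that condition alone called 1 higher. Within ELA_SAFit2, DESeq2 called 26 higher and 11 lower, and the fit of that condition alone called 0 lower. Against other regions, including the nucleus accumbens gave 2 higher and 1 lower, the BLA alone 1 and 0, a prior count of 0.5 gave 1 lower, and the fit with no replicate block, that is without the pairing by mouse, gave 2 and 1. The causes of these changes were not tested. Genes with a summed count under 100 were not tested, which sets what depth could show. Each run held 1 interaction state, so at most 7 separate runs of each state are behind any difference that runs could carry.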

Other observations

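Genes outside the lists were also among the 146, and were picked here with their values known. Glul, which encodes the glutamine synthetase of astrocytes, had a median of 1029 CPM (901 to 1182) without and 1203 CPM (988 to 1435) after the interaction (log2 fold change 0.21 ± 0.04), and 11 of 20 SocialInteraction libraries lay above the highest NoInteraction library. Gpd1, a glycerol phosphate dehydrogenase (0.20 ± 0.04), Fam107a, an actin-associated gene that glucocorticoids and stress induce (0.38 ± 0.07), and Cth, an enzyme of cysteine synthesis (0.35 ± 0.07), rose as well. So did the receptors Igf1r, for insulin-like growth factor (0.13 ± 0.03), and Htr2a, for serotonin (0.22 ± 0.05). For Fam107a and Igf1r all 20 SocialInteraction libraries lay above the NoInteraction median. The edgeR calls of these 6 genes held whichever run was left out.

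Enzymes of amino acid metabolism with a call that did not hold without mice 57 to 63 were Prodh (0.24 ± 0.06), Gpt2 (0.17 ± 0.04) and Cbs (0.17 ± 0.04). Mertk, a receptor by which astrocytes and microglia take up debris, had 24.8 to 44.2 CPM without and 27.4 to 63.3 CPM after the interaction (0.33 ± 0.08), and was not called without those mice either (0.21, adjusted p = 0.263, edgeR). Among the lower genes, Gpr37, a receptor of oligodendrocytes (-0.21 ± 0.05), and the matrix protein tenascin C (Tnc, -0.32 ± 0.09) fell, and both calls were lost without those mice (adjusted p = 0.16 and 0.307, edgeR).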
